A study of Danio rerio with 10 samples.

Results

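The glucocorticoid receptor gene nr3c1 and 9 genes known to respond to glucocorticoids were followed in zebrafish kidney marrow, where adult fish make their blood cells. Every probe set whose single annotated gene symbol was fkbp5, klf9, hsd11b2, nr3c1, tsc22d3, errfi1a, ddit4, zbtb16a, txnipa or txnipb was taken, which gave 13 of 15502 probe sets and all 10 genes. The genes were chosen with the comparison of CREB and control fish already known, so their differences between the groups are given as a description and carry no test. Total RNA of whole marrow was measured on an Affymetrix zebrafish array in 5 samples of fish that overexpress human CREB, a nuclear factor that cyclic AMP signals switch on, and in 5 samples of control fish, 1 array a sample. The labels do not say whether a sample is 1 fish or a pool, so p-values measure the spread between these samples. The labels give the controls no further genotype, and the promoter that drives CREB, the strain, the age and the sex of the fish are not given in the sources used here. Values are the authors' deposited signals on the log2 scale, where 1 unit is a doubling.

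The glucocorticoid receptor is a nuclear receptor that waits in the cytoplasm in a complex with Hsp90 and other chaperones. Cortisol, the main glucocorticoid of fish, releases it to the nucleus, where it binds DNA and raises or lowers transcription. Among the best known induced genes of vertebrates is FKBP5, whose protein sits on the receptor complex and lowers its affinity for hormone, a short feedback loop. In blood formation, glucocorticoids are known in mammals to kill immature lymphocytes, to mobilise neutrophils and to sustain erythroid progenitors under stress.

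In the marrow of CREB fish fkbp5, klf9 and hsd11b2 stood higher than in control marrow, by 4.40, 2.53 and 1.48 on the log2 scale, while the receptor gene itself and the classical targets tsc22d3, zbtb16a and txnipa did not pass the threshold. Across the array, 23.5% of all probe sets were called higher in CREB fish and 6.79% lower, 30.3% in all (limma, Benjamini-Hochberg adjusted p under 0.05). Of the 13 probe sets of these genes, 5 were called higher and none lower, or 38.5% against that 23.5%, and nothing is read from this share because the genes were chosen on the same comparison. The 5 probe sets belong to 5 genes, and the other 5 genes had none called. The median difference of the 13 probe sets was 0.25, and that of all probe sets was 0.18. Under other scalings of the arrays the median of all probe sets was -0.01 (cyclic loess) or 0.04 (quantile), and the calls over the array split differently, with 51.9%, 60.4% and 63.3% of them higher under cyclic loess, quantile and median scaling against 77.6% as deposited.

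**Figure D1:**
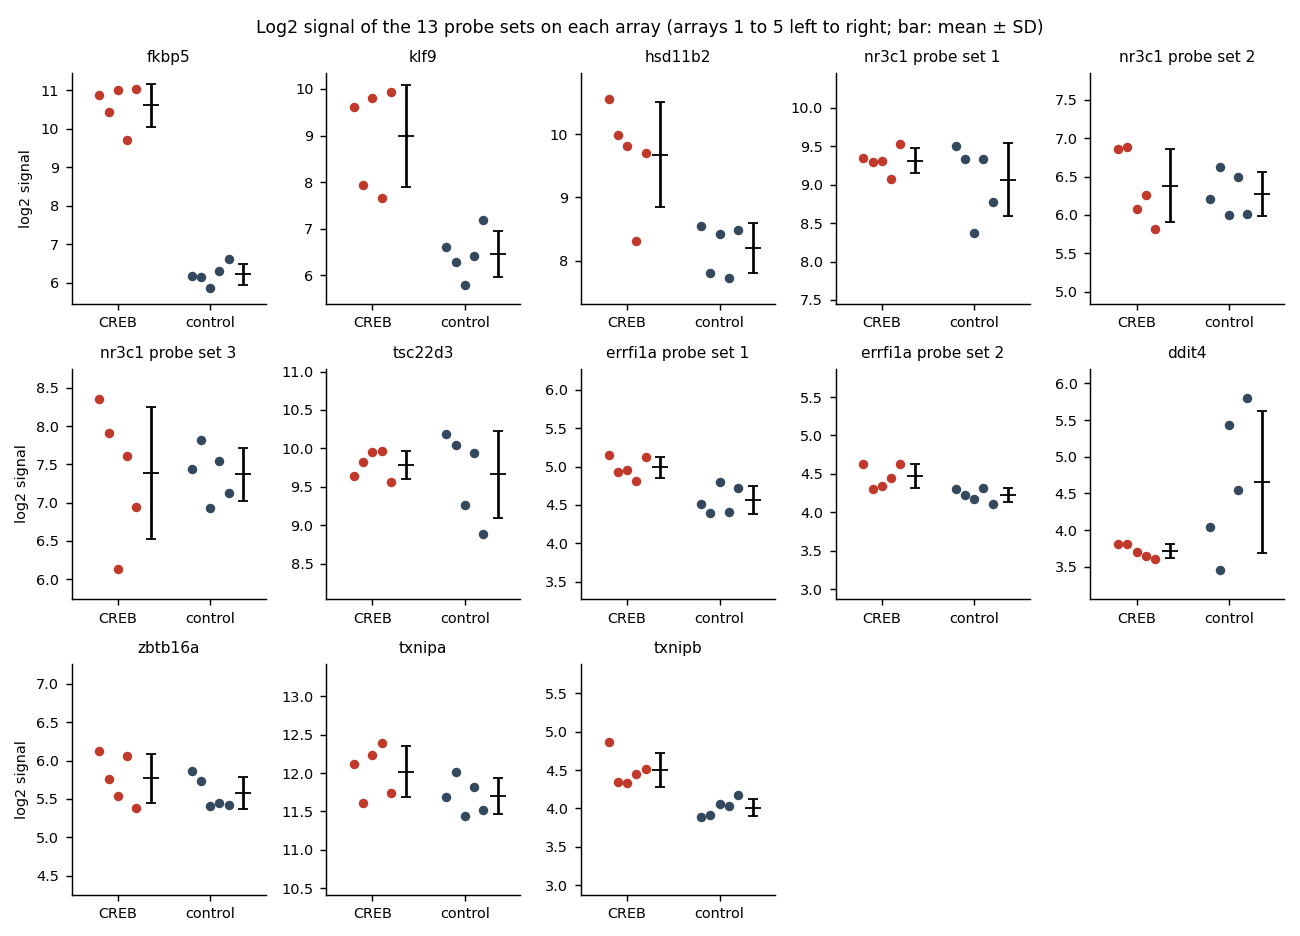
Log2 signal of each of the 13 probe sets, one panel each with its own range of the log2 axis, on the 5 CREB arrays (red, left) and the 5 control arrays (dark, right). Points are arrays 1 to 5 from left to right within a group, and the bar beside them is the mean with its SD. The groups are fully apart in fkbp5, klf9, errfi1a probe set 1 and txnipb.

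Some measures of whole arrays bear on what follows. The 5′ end of gapdh, a control transcript probed at both ends, lay 4.89 and 4.46 log2 units below its 3′ end on CREB arrays 3 and 5, and between 1.06 and 1.53 below it on the other 8 arrays. Control arrays 3, 4 and 5 carried gonad and egg transcripts, with a mean level over 15 marker genes of 9.27, 7.67 and 9.19, and so did CREB array 4, at 7.35. That level was between 5.22 and 5.88 on the other 6 arrays. Control arrays 4 and 5 also carried exocrine pancreas transcripts, with a level over 14 genes of 10.11 and 11.03 against 6.23 to 7.18 elsewhere. Skeletal muscle and kidney tubule markers were higher in CREB fish, with 15 of 16 and 14 of 19 genes called, against 23.5% of all probe sets. Of 9 neutrophil markers 5 were lower, against 6.79% of all probe sets. Among 10 erythroid markers 1 was lower and none higher. The muscle level was 7.33 to 9.82 on the CREB arrays and 4.79 to 5.30 on the control arrays. The part of muscle tissue in the values of the members and of the other genes named below was not tested. In whole tissue, a change in the share of a cell type and a change in RNA per cell cannot be told apart. Probe sets for tag sequences that no fish transcript carries averaged 4.33 ± 0.10 over the CREB arrays and 4.08 ± 0.11 over the control arrays (SD, n = 5 each), which marks the level of background on this scale.

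The receptor gene nr3c1 was measured by 3 probe sets, none of them called. Probe set 1 had 9.35, 9.30, 9.31, 9.08 and 9.53 in CREB fish, against 9.50, 9.33, 8.37, 9.34 and 8.78 in control fish. The groups overlapped, and the 2 low controls were arrays 3 and 5, the arrays with the highest gonad and egg level. Both also had the lowest neutrophil marker levels of the control group, at 10.55 and 10.45. Control arrays 1, 2 and 4 had 11.45 to 11.54. The part of these tissues and cells in the values of probe set 1 was not tested. The difference was 0.25 ± 0.21 (SE), and -0.10 without control arrays 3, 4 and 5, where those of probe sets 2 and 3 were -0.04 and -0.24. Probe set 2 averaged 6.38 ± 0.48 over CREB arrays and 6.27 ± 0.29 over control arrays (SD, n = 5 each), a difference of 0.11 ± 0.23 (SE).

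Probe set 3 of nr3c1 was split inside the CREB group. It read 8.35, 7.90, 6.14, 7.61 and 6.94 on CREB arrays 1 to 5, against 7.44, 7.81, 6.93, 7.54 and 7.12 on control arrays 1 to 5. CREB arrays 3 and 5, with the low gapdh 5′ signal, were the lowest of their group. Their erythroid marker levels, 7.90 and 9.10, were also the lowest of that group, against 9.15 to 9.79 on CREB arrays 1, 2 and 4. The mean difference of 0.02 ± 0.38 (SE) became 0.59 without CREB arrays 3 and 5, and that of probe set 2 became 0.40. Both were still short of the threshold. Probe set 2 was also lowest in the CREB group on arrays 3 and 5, at 6.08 and 5.81, against 6.26 to 6.88 on CREB arrays 1, 2 and 4. Probe set 1 was not lower on CREB arrays 3 and 5. The positions of the probe sets along the transcript are not given in the sources used here. The part of RNA integrity or of erythroid cells in these values was not tested.

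The feedback gene fkbp5 had the clearest difference. Its log2 signal was 10.87, 10.44, 10.996, 9.71 and 11.04 on CREB arrays 1 to 5, against 6.18, 6.14, 5.85, 6.30 and 6.61 on control arrays 1 to 5. The lowest CREB array lay 3.11 units above the highest control array, and all control values were well above the tag sequences. The difference of 4.40 ± 0.26 (SE) is a 21.0-fold higher signal, the 13th largest rise of 15502 probe sets. It was between 4.12 and 4.45 when the arrays with gonad and egg transcripts among the controls, or those with a low gapdh 5′ signal, were left out.

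The enzyme encoded by hsd11b2 oxidises cortisol to inactive cortisone, and in mammals it shields the mineralocorticoid receptor of the distal nephron from cortisol. The signal was 10.56, 9.99, 9.81, 8.32 and 9.70 in CREB fish, against 8.55, 7.81, 8.42, 7.72 and 8.49 in control fish. Of the 5 CREB arrays 4 lay above every control, and CREB array 4 lay inside the control range. The difference was 1.48 ± 0.37 (SE), or 2.79-fold. The level of kidney tubule and glomerulus markers was also lowest on CREB array 4 among the CREB arrays, at 8.39 against 9.06 to 9.26 on the other 4, with the control arrays between 7.50 and 8.20. The part of kidney tissue in the hsd11b2 signal was not tested. Without CREB arrays 3 and 5 the difference was 1.42, and it was no longer called, as it was not without control arrays 3, 4 and 5.

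**Figure D2:**
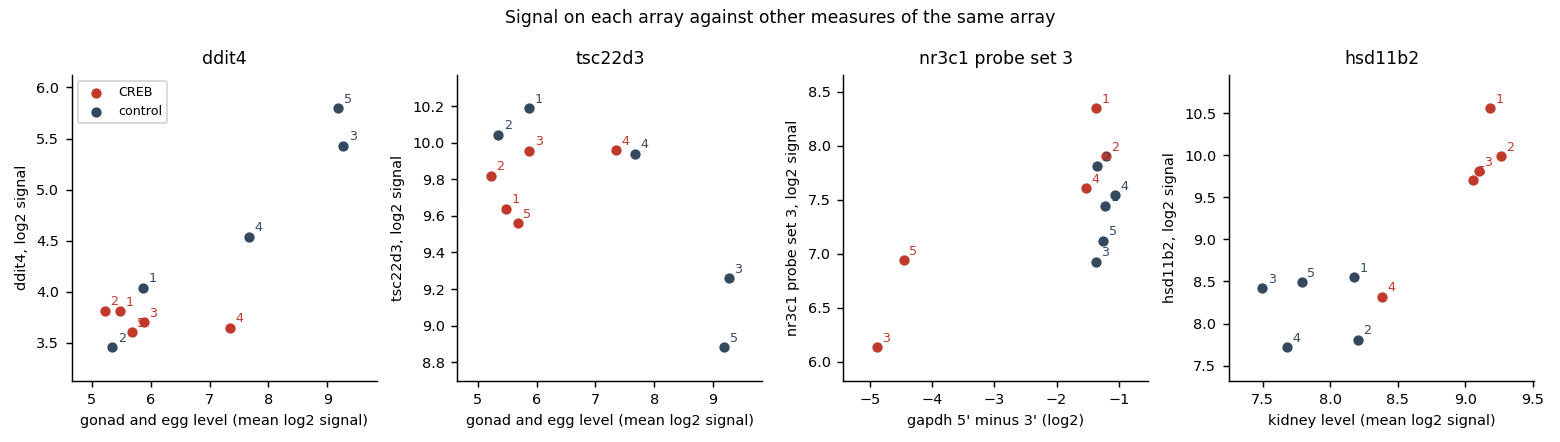
Log2 signal of ddit4 and tsc22d3 against the gonad and egg marker level (mean log2 signal of 15 genes), of nr3c1 probe set 3 against the log2 difference between the 5′ and 3′ signals of gapdh, and of hsd11b2 against the kidney marker level (mean log2 signal of 19 genes). Each point is an array, numbered, CREB in red and control in dark. Control arrays 3 and 5 are highest for ddit4 and lowest for tsc22d3, CREB arrays 3 and 5 are lowest for nr3c1 probe set 3 within the CREB group, and CREB array 4 sits with the controls for hsd11b2.

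The gene klf9 encodes a zinc finger repressor that glucocorticoids induce in many tissues, and that in mammals also follows the circadian clock. It measured 9.60, 7.94, 9.80, 7.67 and 9.94 on CREB arrays 1 to 5, against 6.61, 6.29, 5.79, 6.41 and 7.18 on control arrays 1 to 5. The groups did not overlap, yet the CREB arrays fell into a higher set of 3 and a lower set of 2, arrays 2 and 4. The difference was 2.53 ± 0.48 (SE), a 5.79-fold higher signal, and 1.95 without CREB arrays 3 and 5. Without control arrays 3, 4 and 5 it was 2.54, no longer called. Of these 13 probe sets 4 (30.8%) were free of overlap, all with CREB fish higher. Over the whole array 19.6% were so with CREB fish higher and 4.20% with CREB fish lower, 23.8% in all.

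The gene tsc22d3 encodes GILZ, a leucine zipper protein that in mammals carries much of the anti-inflammatory action of glucocorticoids. It measured 9.64, 9.82, 9.96, 9.96 and 9.56 in CREB fish, against 10.19, 10.04, 9.26, 9.94 and 8.88 in control fish. The CREB fish lay inside the control range throughout. The difference was 0.12 ± 0.25 (SE), and it changed sign to -0.33 without control arrays 3, 4 and 5. The 2 lowest control values, on arrays 3 and 5, came with the lowest neutrophil marker levels of the control group, 10.55 and 10.45 against 11.45 to 11.54 on control arrays 1, 2 and 4. Control arrays 3 and 5 also had the highest gonad and egg level, at 9.27 and 9.19. The neutrophil list shares cpa5 with the exocrine pancreas list. The part of these cells and tissues in the tsc22d3 values was not tested.

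The gene ddit4, also called redd1, encodes a stress-induced inhibitor of mTORC1 and is raised by glucocorticoids in mammalian muscle and lymphocytes. Here it was the 1 member with a lower mean in CREB fish. Its signal was 3.81, 3.82, 3.70, 3.65 and 3.60 in CREB fish, against 4.04, 3.46, 5.43, 4.54 and 5.80 in control fish. All CREB values lay below the tag sequence level of that group, so ddit4 was not measured above background there. The spread came from control arrays 3, 4 and 5, the control arrays with gonad and egg transcripts. CREB array 4, with a gonad and egg level of 7.35 against 7.67 on control array 4, read only 3.65. The part of gonad tissue in the ddit4 values was not tested. The difference of -0.94 ± 0.39 (SE) was not called, and was -0.03 without control arrays 3, 4 and 5. It was called at -1.24 when control array 2 alone was left out.

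The txnip genes encode arrestin-like proteins that bind thioredoxin and restrain glucose uptake, and mammalian TXNIP is a common glucocorticoid target in lymphoid cells. The gene txnipa gave a strong signal of 12.11, 11.61, 12.24, 12.39 and 11.74 in CREB fish, against 11.69, 12.01, 11.44, 11.82 and 11.52 in control fish. The groups overlapped, with a difference of 0.32 ± 0.18 (SE). Its paralogue txnipb read 4.87, 4.35, 4.33, 4.44 and 4.51 in CREB fish, against 3.88, 3.92, 4.05, 4.03 and 4.17 in control fish. The groups were apart by 0.16, and the probe set was called, at 0.49 ± 0.12 (SE). The mean stood 0.17 above the tag sequences in CREB fish and at -0.06 from them in control fish, and the tag sequences themselves differed by 0.25. The txnipb difference was 0.21 under cyclic loess and 0.23 under quantile scaling, without a call.

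The gene errfi1a encodes an inhibitor of EGF receptor kinases. Its probe set 1 measured 5.14, 4.93, 4.95, 4.81 and 5.12 in CREB fish, against 4.51, 4.40, 4.80, 4.41 and 4.72 in control fish, so the groups were apart by only 0.02. It was called, at 0.42 ± 0.12 (SE), a call lost without any 1 of CREB arrays 1 and 5 and control arrays 1, 2 and 4, and at differences of 0.14 and 0.19 under cyclic loess and quantile scaling. The call was also lost under median scaling and with the replicate block (limma, adjusted p = 0.0529 and 0.0577). Nor did it hold without CREB arrays 3 and 5 or without control arrays 3, 4 and 5. The 2 highest control values were on arrays 3 and 5, those with the highest gonad and egg level, whose part was not tested. Probe set 2 averaged 4.47 ± 0.16 over CREB arrays and 4.23 ± 0.09 over control arrays (SD, n = 5 each), with overlap. Its difference of 0.24 ± 0.11 (SE) was not called and turned to -0.04 under cyclic loess and -0.03 under quantile scaling. Its 4 means lay between 0.14 and 0.66 above the tag sequences of their group.

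The zinc finger factor gene zbtb16a, whose mammalian counterpart PLZF is among the most strongly induced glucocorticoid targets and acts in progenitor and lymphoid cells, measured 6.12, 5.76, 5.54, 6.05 and 5.39 in CREB fish, against 5.86, 5.74, 5.41, 5.44 and 5.42 in control fish. The groups overlapped, and CREB arrays 3 and 5, with the low gapdh 5′ signal, were the lowest of their group. The difference was 0.20 ± 0.17 (SE), close to the median of all probe sets, 0.40 without CREB arrays 3 and 5, and -0.03 without control arrays 3, 4 and 5. CREB arrays 3 and 5 also had the lowest erythroid marker levels of their group, 7.90 and 9.10. On CREB array 5 the neutrophil level was the lowest of that group too, at 9.20. The part of RNA integrity or of these cells in the zbtb16a values was not tested.

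**Figure D3:**
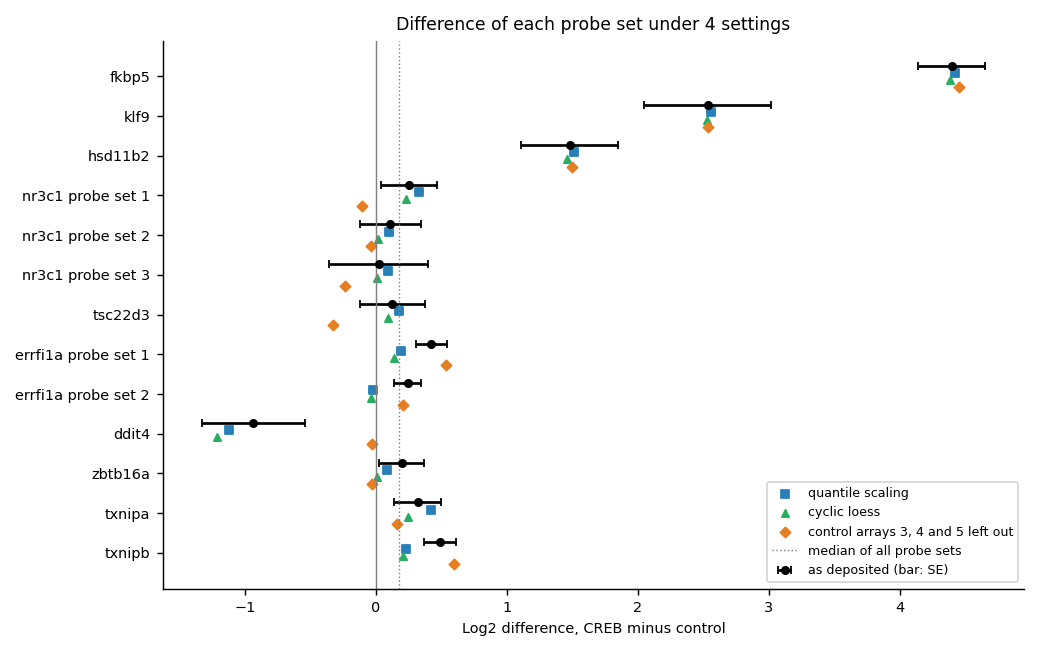
Log2 difference, CREB minus control, of each of the 13 probe sets as deposited (circles, with the SE as a bar), after quantile scaling (squares), after cyclic loess (triangles) and with control arrays 3, 4 and 5 left out (diamonds). The solid line is 0 and the dotted line the median of all probe sets, 0.18. The settings lie close together for fkbp5, klf9 and hsd11b2, and ddit4 moves to -0.03 when control arrays 3, 4 and 5 are left out.

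Whether the genes moved together from sample to sample was asked within the groups, with the mean difference between the groups taken out. A rise that differs in size between CREB samples is not taken out. The SD of fkbp5 and klf9 was 0.55 and 1.09 over CREB arrays, and 0.27 and 0.50 over control arrays (n = 5 each). Each array's value was taken as its deviation from the mean of its group, and Pearson's r with fkbp5 was tested over the 10 arrays by exact permutation within groups (every arrangement, two-sided, adjusted over the 12 other probe sets). The gene klf9 varied with fkbp5 (r = 0.93, exact permutation p = 0.000417, adjusted p = 0.00500; Spearman's rho = 0.95, exact permutation p = 0.00125, adjusted p = 0.0150). Among the CREB arrays both genes ran in the same order, lowest on array 4 and then rising through arrays 2, 1, 3 and 5. Among the control arrays array 3 was lowest and array 5 highest for both. Without CREB arrays 4 and 5, the arrays farthest from the median of fkbp5, r was 0.92 (exact permutation p = 0.00556).

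The r of fkbp5 and klf9 was 0.89 without CREB arrays 3 and 5 (exact permutation p = 0.0194, adjusted p = 0.233) and 0.92 without control arrays 3, 4 and 5 (exact permutation p = 0.00417, adjusted p = 0.050). That p is the smallest those arrays allow, so the loss of the call there says nothing about the relation. Only 11 of 15501 other probe sets, klf9 included, had an r as high. For comparison, 8.24% of all other probe sets had an unadjusted exact p under 0.05. CREB arrays 3 and 5, where both genes were highest, were also those with the low gapdh 5′ signal, and the middle of gapdh was lowest there too, at 7.80 and 8.89, with CREB arrays 1, 2 and 4 between 10.42 and 11.07. CREB array 4, lowest for both genes in its group, had the lowest kidney marker level of that group. It also had the highest gonad and egg level and the highest neutrophil level of that group, at 7.35 and 10.63. Beyond the values without CREB arrays 3 and 5, the part of these measures in the relation was not tested.

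No other member passed this test. The r of hsd11b2 with fkbp5 was 0.64 (rho = 0.10; exact permutation p = 0.143 and 0.842, adjusted p = 0.570 and 0.918), and 0.04 without CREB arrays 4 and 5. It rested on CREB array 4, the lowest array of its group for both genes. Probe set 1 of nr3c1 had an r of 0.36 (rho = 0.60; exact permutation p = 0.170 and 0.109, adjusted p = 0.570 and 0.654). It passed without control array 5, and its r was 0.83 without control arrays 3, 4 and 5 (exact permutation p = 0.00833, adjusted p = 0.050). The r of the remaining 9 probe sets lay between -0.48 for zbtb16a and 0.40 for errfi1a probe set 1 (exact permutation, adjusted p between 0.570 and 0.784), and tsc22d3 and txnipa were at -0.28 and -0.27. With 10 arrays, values of this size are not told apart from 0.

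**Figure D4:**
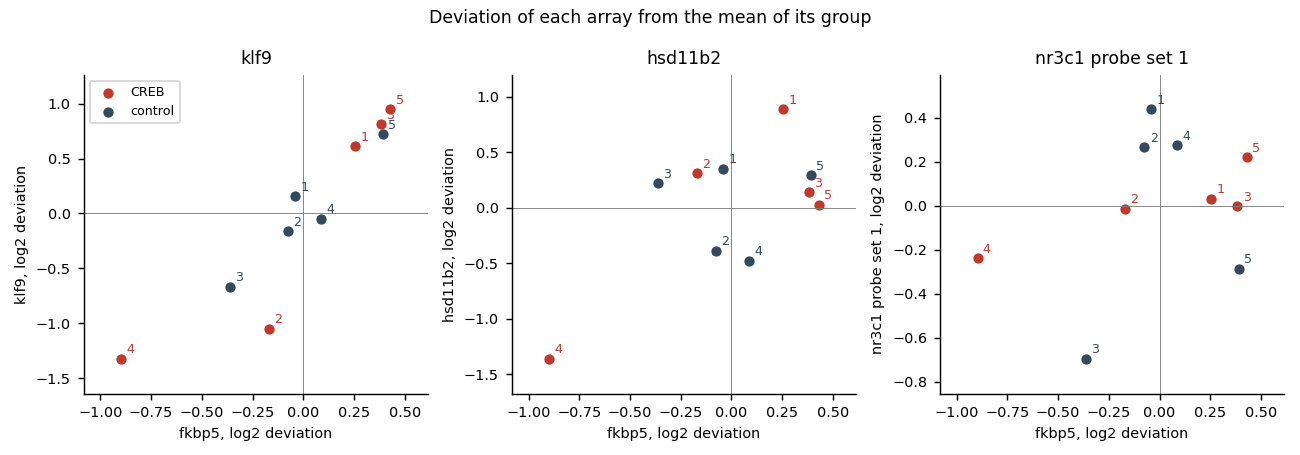
Deviation of klf9, hsd11b2 and nr3c1 probe set 1 (y, log2 units) from the mean of its group, against that of fkbp5 (x, log2 units), for CREB arrays (red) and control arrays (dark), numbered 1 to 5. In klf9 the 10 points rise together (r = 0.93), in hsd11b2 CREB array 4 stands alone at the lower left, and in nr3c1 probe set 1 control array 3 is lowest.

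Among all named genes, the 5 with a signal most like that of fkbp5 over the 10 arrays were xiap (r = 0.99), an inhibitor of apoptosis, pck1 (0.99), which encodes a gluconeogenic enzyme, akap9 (0.99), an anchor of protein kinase A, the phosphate transporter gene slc20a1a (0.99), which is also 1 of the 19 kidney markers, and the nuclear receptor gene nr2e3 (0.98). These values describe 2 well separated groups of 5 arrays on shared hybridisations and carry no test. Within groups the 5 most alike were polg (0.96), soul3 (0.95), xiap (0.94), gli3 (0.93) and igsf5a (0.93), of which xiap alone is in both sets. The signals of nr2e3, polg, gli3 and igsf5a lay within 1 log2 unit of the tag sequences or below them. The klf9 values by the same measures were 0.93 and 0.93.

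Of 34 measured genes on a list of other glucocorticoid-induced genes, 13 (38.2%) rose in CREB fish, none fell and 21 did not pass, with a median difference of 0.49 against 0.18 over all probe sets, of which 23.5% were called higher. The list was drawn up with earlier results of these arrays known, and several of its genes are cyclic AMP or clock targets as well. The phosphatase gene dusp1, which shuts off MAP kinases, averaged 11.55 ± 0.38 over CREB arrays and 9.38 ± 0.39 over control arrays (SD, n = 5 each), a rise of 2.17 ± 0.23 (SE; limma, adjusted p = 0.000944). The clock repressor gene bhlhe40 rose by 1.44 ± 0.23 (SE; limma, adjusted p = 0.00424), and without control arrays 3, 4 and 5 it was at 1.08 (adjusted p = 0.0781). The clock gene per2 and the stress gene gadd45ba rose by 2.49 and 2.33 (limma, adjusted p = 0.000221 and 0.000592). The gluconeogenic pck1 measured 10.30, 8.76, 9.54, 8.67 and 10.88 in CREB fish (limma, adjusted p = 0.000149), against 3.59 to 4.15 in control fish, which is tag sequence level, so no fold is given. Without CREB arrays 3 and 5, 8 of the 34 passed, where 13.1% of all probe sets did, and 4 without control arrays 3, 4 and 5, where 2.38% of all did.

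Receptor chaperones and cofactors had 6 of 18 genes (33.3%, against 23.5% of all probe sets) higher, none lower and 12 not passing, with a median of 0.36. The Hsp90 genes hsp90aa1.2, hsp90aa1.1 and hsp90ab1, whose proteins hold the receptor ready for hormone, rose by 2.19 ± 0.35, 1.35 ± 0.34 and 0.51 ± 0.11 (SE; limma, adjusted p = 0.00422, 0.0175 and 0.0121). The control signal of hsp90aa1.1, at 4.53, was close to the tag sequences. Muscle markers were also at a higher level on every CREB array, and their part in the Hsp90 values was not tested. The gene fkbp4, whose protein competes with FKBP5 for the Hsp90 complex, measured 9.16, 9.58, 9.32, 9.30 and 8.88 in CREB fish, against 8.78, 8.39, 8.43, 8.19 and 8.18 in control fish. The groups were apart by 0.10 and the rise was 0.85 ± 0.16 (SE; limma, adjusted p = 0.00698). The coactivator gene ncoa2 rose by 0.47 ± 0.11 at a control signal of 4.27 (SE; limma, adjusted p = 0.0163), and was at 0.18 under cyclic loess (adjusted p = 0.182). None of the 18 passed without control arrays 3, 4 and 5, where 2.38% of all probe sets did and hsp90aa1.2 was at 1.86 and fkbp4 at 0.66 (limma, adjusted p = 0.0808 and 0.116). With the replicate block 3 of the 18 passed, where 15.3% of all probe sets did.

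Of the 5 named pathway genes with a second probe set, 4 had it lowest in the CREB group on both arrays with a low gapdh 5′ signal. The same held in nr3c1 probe set 3, and in hsp90ab1 it did not. Nor did it hold in errfi1a probe set 2, at 4.34 and 4.63 on CREB arrays 3 and 5, the latter the highest of its group. The second probe set is the one of lower mean, a label that a drop on 2 arrays makes likelier. The second probe set of hsp90aa1.2 read 5.14 and 4.89 on CREB arrays 3 and 5, 7.42, 8.25 and 9.60 on the other CREB arrays and 5.71 to 6.71 in control fish. That of gadd45ba read 5.18 and 5.24 on CREB arrays 3 and 5, 8.49 to 9.35 on the other CREB arrays and 6.27 to 7.08 in control fish. Neither passed over all arrays, at 0.88 and 0.80 (limma, adjusted p = 0.418 and 0.481). That of srd5a3 read 5.90 and 5.67 on CREB arrays 3 and 5, 6.88 to 7.10 on the other CREB arrays and 7.04 to 7.74 in control fish. It did not pass, at -0.81 (limma, adjusted p = 0.0665). That of hsp90ab1 did not pass either, at 0.31 and a control signal of 3.70 (limma, adjusted p = 0.0730). That of per2 read 5.50 and 5.30 on CREB arrays 3 and 5, still above every control array, and was called higher at 0.88 (limma, adjusted p = 0.0100).

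Genes of steroid synthesis and breakdown, which include the cortisol pathway of the interrenal tissue that lies within the fish kidney, had 2 of 13 higher (15.4%, against 23.5% of all probe sets), 1 lower and 10 not passing. The steroid reductase family gene srd5a3 was lower, at -0.68 ± 0.14 (SE; limma, adjusted p = 0.00973), while its second probe set did not pass. The factor gene nr5a1a, a regulator of steroidogenic genes, rose (limma, adjusted p = 0.0126), with a mean of 4.34 in CREB fish, which is their tag sequence level, and 3.35 in control fish. Its paralogue nr5a1b, at 3.36 in CREB fish and 3.07 in control fish, was below that level in both groups (limma, adjusted p = 0.0384), and its call was lost in 8 of 10 fits that left out 1 array. The cortisol-forming enzyme gene cyp11c1 and the corticotropin receptor gene mc2r had differences of 0.55 ± 0.21 and 0.27 ± 0.11 (SE) and did not pass (limma, adjusted p = 0.0741 and 0.0792), though both did with array weights. The mc2r means, 4.51 in CREB fish and 4.24 in control fish, were close to the tag sequences, which themselves differed by 0.25. Some synthesis genes, named here after their values were seen, were high on single arrays. The side-chain cleavage enzyme gene cyp11a1.1 read 8.70 and 7.75 on control arrays 3 and 5, those with the highest gonad and egg level, and at most 5.01 on the other 8. The gene cyp17a1, a hydroxylase of the same pathway, read 7.45 and 5.97 there and at most 4.67 elsewhere. The cholesterol carrier gene star read 10.85 on CREB array 1 and 12.25 on control array 3, and at most 5.68 elsewhere. The part of gonadal or interrenal tissue in the values of this list was not tested. None of the 13 passed without control arrays 3, 4 and 5, where 2.38% of all probe sets did and srd5a3 was at -0.47 (limma, adjusted p = 0.108). Cortisol itself was not measured.

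Of 7 measured inflammatory genes that glucocorticoids repress in mammals, 1 rose (14.3%, against 23.5% of all probe sets), none fell and 6 did not pass, with a median of 0.04. The cyclooxygenase gene ptgs2a rose by 0.74 ± 0.22 (SE; limma, adjusted p = 0.0310) at a control signal of 3.87, below the tag sequences, and its call was lost in 7 of 10 fits that left out 1 array and under every other scaling tried. The interferon factor genes irf1b and irf1a were at 0.86 ± 0.42 and -0.18 ± 0.36, the collagenase gene mmp13a at -0.83 ± 0.46 and the NF-kB subunit gene relb at -0.14 ± 0.21 (SE), none past the threshold (limma, adjusted p between 0.130 and 0.719). Without CREB array 1 irf1b passed, at 1.18.

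**Figure D5:**
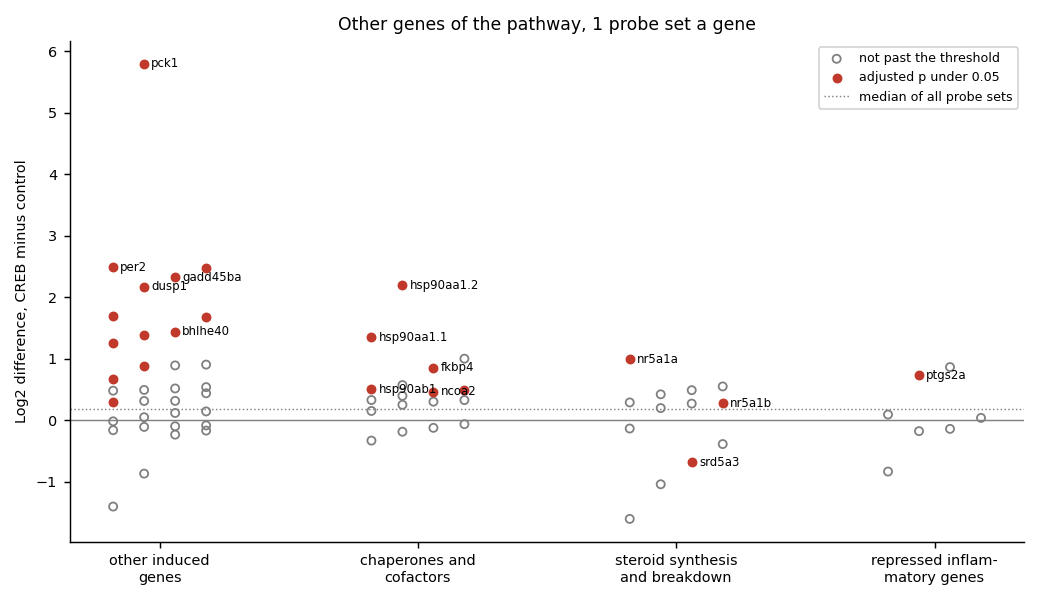
Log2 difference, CREB minus control, of the 72 other genes of the pathway in 4 lists, 1 probe set a gene, filled where the adjusted p was under 0.05 and open where it was not. The solid line is 0 and the dotted line the median of all probe sets, 0.18. Filled points lie above 0 in every list, with srd5a3 the 1 exception.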

How the data were processed

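Per the labels' protocols, 100 ng of total RNA a sample went into the Affymetrix 3' IVT Express kit. The values are the authors' deposited table of 15617 probe sets on 10 arrays, taken to be log2 because they run between 2.57 and 15.04. Summary method and scaling are not given in the sources used here. Array medians lay between 5.72 and 5.93. The 115 control probe sets were set aside. Symbols are those of the platform annotation, brought up to date by Entrez ID through a RefSeq table of GRCz12tu used for names only: 10795 probe sets had 1 symbol, 135 several and 4572 none.

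The CREB and control arrays entered 1 limma fit (version 3.58.1, R 4.3.3) with lmFit and eBayes, no filter and no covariate. Two-sided p-values were adjusted after Benjamini and Hochberg across 15502 probe sets, with a threshold of 0.05. The number of arrays limits the precision. Genes outside the members are given by their probe set with the highest mean. Members and lists were chosen with earlier results of these data known, and named genes were the 5 of each list with the smallest p and the 5 most like fkbp5 by each measure, clone and LOC names passed over. The fit and the permutation test were tested on simulated data. Alternatives were 3 scalings, filters on dim probe sets, eBayes with trend and robust, array weights, the replicate number as a block, and each array left out in turn. After seeing the data, fits without CREB arrays 3 and 5 and without control arrays 3, 4 and 5 were added. Python 3.11.15 was used for the permutation tests and figures. Sequences are not used here.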

Additional observations from a re-analysis of the deposited data

Results flagged for a closer look

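Of 66 groups of 5 arrays examined for 1 array far from the rest (13 probe sets and 20 pathway genes in CREB and control fish), 2 stood out, and chance gives about 1 such group in 20. The inflammatory gene ptgs2a read 4.50 on control array 3, with the next highest control at 3.83. The NF-kB subunit gene relb read 6.28 on CREB array 3, with the next highest CREB array at 5.69. None of the 13 probe sets of the receptor and its responsive genes stood out in this way.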

How the results depend on the processing

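The genes fkbp5, klf9 and hsd11b2 were called higher as deposited and under all 3 other scalings, both filters on dim probe sets, trend and robust eBayes, array weights, the replicate block and each of 10 fits without 1 array. The calls of errfi1a and txnipb were lost under several of these. Of 13 probe sets, 5 were called as deposited, where 30.3% of all probe sets were. It was 3 under cyclic loess, quantile scaling and the replicate block, where 18.3%, 18.4% and 15.3% of all were called. With a mean of log2 6 or more it was 3 of 8 present, and without the dimmest 40% of probe sets 3 of 9. In those filters 20.6% and 21.9% of all probe sets present were called. Both filters removed errfi1a, ddit4 and txnipb. The count was 3 without CREB arrays 3 and 5 (fkbp5, klf9 and txnipb), 1 without control arrays 3, 4 and 5 (fkbp5) and 4 to 5 with 1 array left out, where ddit4 was called lower without control array 2. Of all probe sets 13.1% were called without CREB arrays 3 and 5 and 2.38% without control arrays 3, 4 and 5. Fewer arrays enter there, and over all arrays the share was 30.3%. With 1 array left out, 20.2% to 33.3% of all probe sets were called. With klf9 as the 1 probe set varying with fkbp5, the count was 1 to 2 with 1 array left out, 2 without control array 5, and 0 without CREB arrays 3 and 5 or control arrays 3, 4 and 5 (exact permutation; 1 and 2 probe sets at an unadjusted p under 0.05). In the last, klf9 has r = 0.92 and the smallest p those arrays allow, which adjusts to 0.05, so its loss says nothing about stability. Of 72 pathway genes 23 were called, where 30.3% of all probe sets were, and nothing is read from this count. Among genes with a mean of log2 6 or more, 15 of 51 present were called, where 20.6% of all such probe sets were. That mean is over all 10 arrays, so pck1, at 9.63 in CREB fish and 3.83 in control fish, was present through the CREB group alone. The pathway count was 13 without CREB arrays 3 and 5 and 4 without control arrays 3, 4 and 5, where 13.1% and 2.38% of all were called. It was 17 to 24 with 1 array left out, where 20.2% to 33.3% of all were called. The causes of these changes in the counts were not tested, and an effect of fewer arrays was not separated from that of the arrays left out. Whether replicate numbers pair the samples is not settled by these values, because each array also carries differences of its own. Same-numbered arrays deviated together with r between -0.02 and 0.27, over 0.1 in 2 of 5 pairs. For arrays of different number r lay between -0.43 and 0.35. The block called 16 of the 72 pathway genes and 15.3% of all probe sets. Signals near the tag sequences (ddit4, errfi1a, txnipb, hsp90aa1.1, ncoa2, nr5a1a, nr5a1b, mc2r, ptgs2a and others) limit the size of their differences.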
